A study of Mus musculus with 16 samples.

Results

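The cytosolic and mitochondrial glutathione transferases are described here in the left ventricle of mice that overexpress nitric oxide synthase 3 and of their wild-type littermates, before and after pressure overload. The family is represented by 10 genes: Gsta1, Gsta2, Gsta3 and Gsta4 of the alpha class, Gstm1 and Gstm2 of the mu class, Gstt1 of the theta class, Gstp1 of the pi class, Gstk1 of the kappa class and Gsto1 of the omega class. They were found by gene symbol and were read by 13 of the 41174 non-control probes, 10 of 27670 genes on the array, and all 13 probes carry a transcript accession of the gene they are named for. Each probe was well above background on all 16 arrays and saturated on none.

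Messenger RNA was measured on one-colour microarrays in 4 groups of 4 mice, 2 males and 2 females each. The groups were transgenic mice 10 weeks after transverse aortic constriction (NOS3-TG TAC), wild-type littermates 10 weeks after the same operation (WT TAC), intact transgenic mice (NOS3-TG baseline) and intact wild-type littermates (WT baseline). Transverse aortic constriction narrows the aorta, so that the left ventricle pumps against a higher pressure. The transgene carried the cardiomyocyte promoter of alpha-myosin heavy chain (alpha-MHC), so the enzyme was made in a cell type other than the endothelium where it is normally abundant. The line had been backcrossed to C57BL/6 N, and per the design text the animals were matched for age and weight. The intact mice had no sham operation, so surgery and load cannot be told apart.

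Glutathione transferases join the tripeptide glutathione to reactive electrophiles, such as aldehydes and epoxides that arise when lipids are oxidised, and several also reduce lipid peroxides. The conjugates are exported from the cell and broken down outside it. Alpha class genes are best known from liver, and many family members carry antioxidant response elements through which the transcription factor Nrf2 raises their transcription. Kappa class enzymes lie in mitochondria and peroxisomes, and omega class enzymes mainly reduce mixed disulfides and dehydroascorbate rather than forming conjugates.

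The results turn first on Gsta1 and Gsta2, close paralogs on chromosome 9, whose promoters are shown because they are also alike in sequence. Each window holds 250 bases before and 50 bases after the annotated start of transcription in RefSeq, build GRCm38.p6, printed 5′ to 3′ in the direction of transcription. The Gsta1 window is chr9:78230419-78230718 on the forward strand and the Gsta2 window is chr9:78347096-78347395 on the reverse strand. Aligned to each other, 232 of 289 bases were identical, 80.3%, and the capitals mark their longest shared run of 29 bases. The third window, chr1:21240335-21240634 on the forward strand, belongs to Gsta3, and its capitals mark a match to the core of the antioxidant response element.
Gsta1: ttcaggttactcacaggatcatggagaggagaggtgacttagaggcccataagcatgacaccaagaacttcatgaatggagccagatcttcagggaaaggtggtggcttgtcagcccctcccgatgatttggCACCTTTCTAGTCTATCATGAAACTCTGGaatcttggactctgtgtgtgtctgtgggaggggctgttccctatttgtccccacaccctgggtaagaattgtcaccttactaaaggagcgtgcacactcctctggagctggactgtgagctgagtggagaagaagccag
Gsta2: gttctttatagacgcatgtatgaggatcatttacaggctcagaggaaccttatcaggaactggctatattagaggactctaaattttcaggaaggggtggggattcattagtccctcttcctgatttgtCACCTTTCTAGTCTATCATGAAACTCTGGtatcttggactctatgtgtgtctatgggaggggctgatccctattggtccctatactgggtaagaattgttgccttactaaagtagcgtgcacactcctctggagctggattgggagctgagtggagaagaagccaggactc
Gsta3: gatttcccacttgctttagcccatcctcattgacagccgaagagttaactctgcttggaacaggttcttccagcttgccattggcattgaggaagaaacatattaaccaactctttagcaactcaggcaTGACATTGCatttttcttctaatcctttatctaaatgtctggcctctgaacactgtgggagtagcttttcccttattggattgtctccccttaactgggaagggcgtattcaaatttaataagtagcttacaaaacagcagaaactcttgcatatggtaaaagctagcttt
The core was searched as TGACNNNGC on both strands, and 12.4% of 32851 promoter windows hold it. Windows of all members but Gsta4 were searched. Among them the core was found in that of Gsta3, where the letters TGACATTGC start 121 bases before the start site. The Gsta1 and Gsta2 windows do not hold these letters, and a match or its absence describes only this stretch of sequence.

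Values below are relative signals: the processed spot signal divided by the 75th percentile of all probes on the same array, so 1 is the level of that percentile. Differences are on the log2 scale, with their standard error (SE) from limma fitted to 15667 genes on all 16 arrays with sex as a covariate. A gene is called changed where the adjusted p-value (limma, Benjamini-Hochberg over all genes) is under 0.05. Levels of different probes are not set against each other. Nos3, the transgene's product, was 51.7-fold higher in NOS3-TG TAC than in WT TAC and 95.9-fold higher in NOS3-TG baseline than in WT baseline. The share of probes well above background was 44.5% to 68.0%, and the 3 arrays farthest from the median of 52.5% were NOS3-TG baseline replicate 2 and NOS3-TG TAC replicates 3 and 4. Calls of members in these comparisons that were lost without these arrays are given with that value. Slides 1 and 4 held the baseline arrays and slides 2 and 3 the TAC arrays, so slide and TAC cannot be told apart, while both genotypes and sexes were on every slide.

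The alpha class genes Gsta1 and Gsta2, which conjugate a broad range of electrophiles and reduce lipid hydroperoxides, were much higher in transgenic hearts. In NOS3-TG baseline the Gsta1 probe read 26.8 and 16.8 in males and 40.0 and 27.8 in females, against 2.50 and 3.15 in males and 2.30 and 2.72 in females of WT baseline. In NOS3-TG TAC it read 7.75 and 5.6 in males and 51.1 and 24.4 in females, against 1.84 and 2.27 in males and 2.11 and 3.13 in females of WT TAC. All 8 transgenic arrays lay above all 8 wild-type arrays, and the males of NOS3-TG TAC were the lowest of the transgenic arrays.

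Gsta1 was 10.04-fold higher in NOS3-TG baseline than in WT baseline (log2 difference 3.33 ± 0.44 SE, adjusted p = 0.00396 by limma) and 6.66-fold higher in NOS3-TG TAC than in WT TAC (2.73 ± 0.44, adjusted p = 0.0213 by limma). The Gsta2 probe read 10.02 and 7.03 in males and 16.1 and 11.4 in females of NOS3-TG baseline, against 0.802 and 0.960 in males and 0.713 and 0.735 in females of WT baseline. After TAC it read 2.76 and 2.20 in males and 21.0 and 9.17 in females of NOS3-TG, against 0.590 and 0.781 in males and 0.676 and 1.1 in females of WT. Again no transgenic array overlapped with a wild-type one. The Gsta2 log2 difference was 3.74 ± 0.47 at baseline (adjusted p = 0.00264 by limma) and 2.93 ± 0.47 after TAC (adjusted p = 0.0206 by limma). The array's annotation lists the transcript of each gene also for the probe of the other, so the 2 probes may report the same transcripts and cannot be counted as independent genes. The Gsta2 probe lies at chr9:78408171-78408230 in the files; the build behind these positions was not stated in the sources used here.

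**Figure D1:**
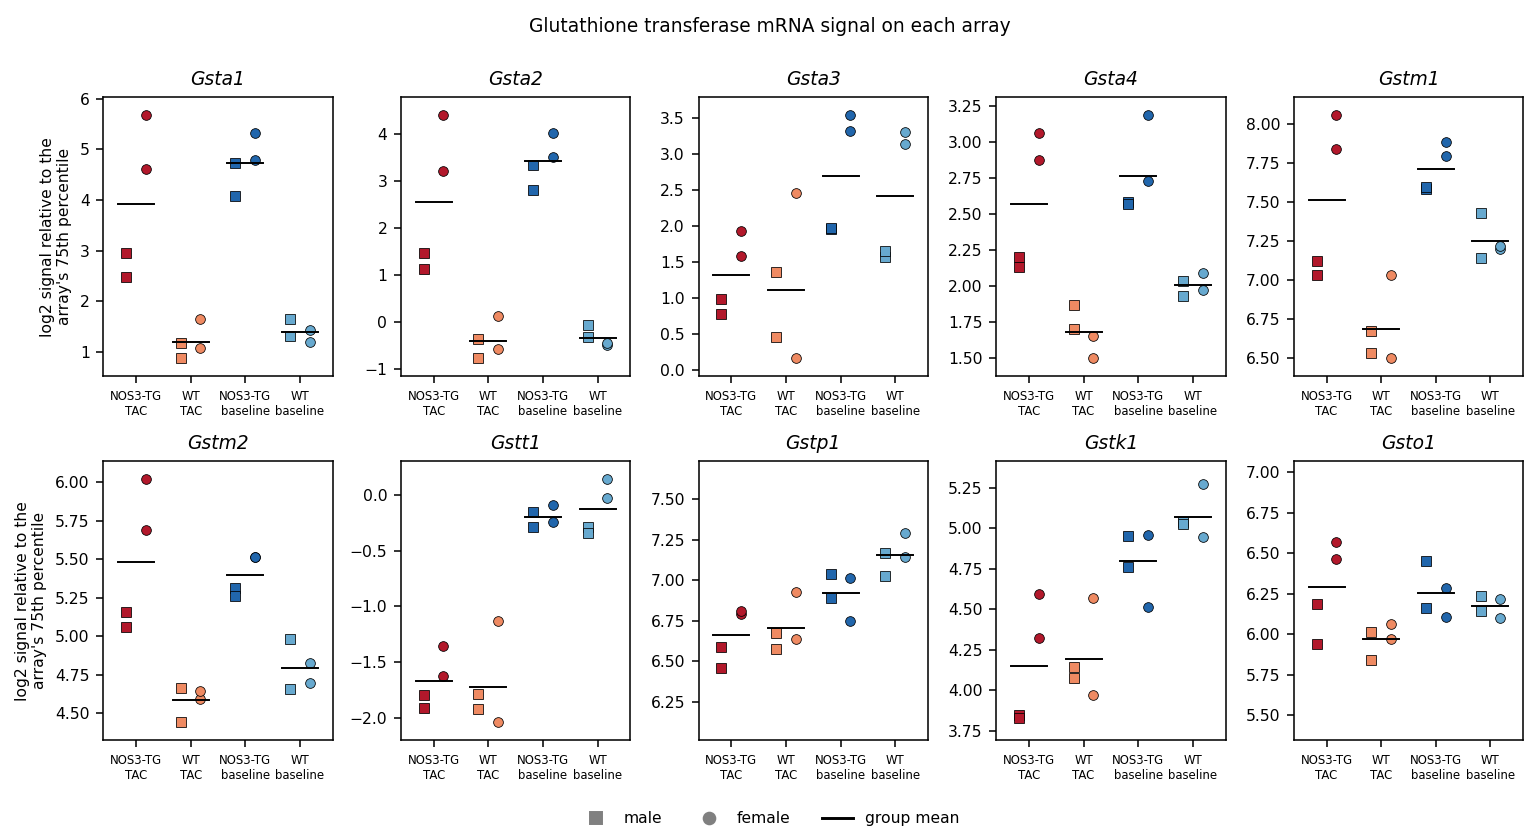
Each panel shows 1 glutathione transferase, with the log2 signal relative to the array's 75th percentile on the vertical axis and the 4 groups on the horizontal axis; squares are males, circles are females and lines are means of 4 arrays. Gsta1, Gsta2, Gsta4 and Gstm2 separate all NOS3-TG from all WT arrays, whereas Gstt1 separates all TAC from all baseline arrays.

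The genotype difference in Gsta1 was present on every slide: 3.34 and 2.13 on the TAC slides and 3.77 and 2.89 on the baseline slides, on the log2 scale. At baseline the calls for Gsta1 and Gsta2 held with each array left out in turn, with a highest adjusted p of 0.0237 and 0.018 by limma. After TAC the calls rested on few animals: the Gsta1 adjusted p by limma rose above 0.05, up to 0.0834, without NOS3-TG TAC replicate 2 or 4 or WT TAC replicate 1 or 4, and that of Gsta2 without NOS3-TG TAC replicate 2 or 4 or WT TAC replicate 1. Without the 3 arrays of extreme background share, the after-TAC log2 differences were 3.12 for Gsta1 and 3.32 for Gsta2, with an adjusted p of 0.106 each by limma. Hepatocytes are the cells in which these genes are best known; Apoa1, Ttr and Fgb, which define them, were above background on 0 arrays and Alb on 1.

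Gsta4, the alpha class enzyme with high activity toward the lipid aldehyde 4-hydroxynonenal, was higher by a smaller amount. Its probe, averaged over 10 spots, read 5.99 and 5.94 in males and 9.11 and 6.63 in females of NOS3-TG baseline, against 4.11 and 3.82 in males and 3.93 and 4.25 in females of WT baseline. After TAC it read 4.38 and 4.59 in males and 8.38 and 7.36 in females of NOS3-TG, against 3.65 and 3.25 in males and 3.14 and 2.82 in females of WT. The lowest transgenic array was above the highest wild-type array. Averaged over both conditions Gsta4 was 1.77-fold higher in NOS3-TG (0.82 ± 0.12, adjusted p = 0.00466 by limma), and within each condition it did not pass (0.76 ± 0.18, adjusted p = 0.0894 at baseline and 0.89 ± 0.18, adjusted p = 0.0533 after TAC, by limma).

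The mu class genes Gstm1 and Gstm2, which conjugate epoxides and quinones, followed the same order. Gstm2 read 39.7 and 38.4 in males and 45.7 and 45.7 in females of NOS3-TG baseline, against 31.7 and 25.3 in males and 26.0 and 28.4 in females of WT baseline. After TAC it read 33.3 and 35.7 in males and 64.8 and 51.6 in females of NOS3-TG, against 21.7 and 25.4 in males and 24.1 and 25.0 in females of WT. No transgenic array overlapped with a wild-type array. Gstm2 was 1.86-fold higher in NOS3-TG TAC than in WT TAC (0.90 ± 0.15, adjusted p = 0.0234 by limma). That adjusted p was up to 0.0916 by limma without NOS3-TG TAC replicate 2 or 4 or WT TAC replicate 1, 2 or 4, and without the 3 arrays of extreme background share the difference was 0.95 (adjusted p = 0.18 by limma). At baseline the difference was 0.61 ± 0.15 and did not pass (adjusted p = 0.11 by limma).

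Gstm1 read 192 and 193 in males and 222 and 237 in females of NOS3-TG baseline, against 173 and 141 in males and 147 and 149 in females of WT baseline. After TAC it read 131 and 139 in males and 267 and 229 in females of NOS3-TG, against 101.7 and 92.4 in males and 131 and 90.3 in females of WT. The groups did not overlap at baseline; after TAC the lower NOS3-TG male lay just below the highest WT female. Averaged over conditions Gstm1 was 1.57-fold higher in NOS3-TG (0.65 ± 0.12, adjusted p = 0.0172 by limma), a call that was lost without the 3 arrays of extreme background share (0.67, adjusted p = 0.104 by limma). Its brighter probe passed in neither condition, with log2 differences of 0.47 ± 0.17 at baseline and 0.83 ± 0.17 after TAC. Its dimmer probe, tested among 23066 single probes, gave 1.01 ± 0.18 at baseline (adjusted p = 0.0362 by limma) and 1.16 ± 0.18 after TAC (adjusted p = 0.0247 by limma). Mu class transcripts are alike in sequence, and how far each probe hybridises to its relatives was not tested.

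Counted over the family, 3 of 10 members were higher and 0 lower in NOS3-TG TAC than in WT TAC, where 0.281% of all genes were called, and 2 were higher and 0 lower at baseline, where 0.415% were. Averaged over conditions, 5 members were higher and 0 lower, against 2.07% of all genes. Each of these counts includes both Gsta1 and Gsta2, whose probes may report the same transcripts. The members' median log2 difference in that average was 0.45, and that of all genes -0.03. The remaining members, Gsta3, Gstt1, Gstp1, Gstk1 and Gsto1, had averaged log2 differences between -0.16 and 0.25, and none passed. Gsto1, the omega class thioltransferase and dehydroascorbate reductase, had the smallest p among them, with 0.20 ± 0.08 (adjusted p = 0.265 by limma). Macrophage markers moved in the same baseline comparison: 2 of 7, Csf1r and Adgre1, were higher, and the summed level of the list was 76.5 to 92.5 in NOS3-TG baseline, against 54.8 to 70.4 in WT baseline. Their part in the glutathione transferase differences was not tested.

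**Figure D2:**
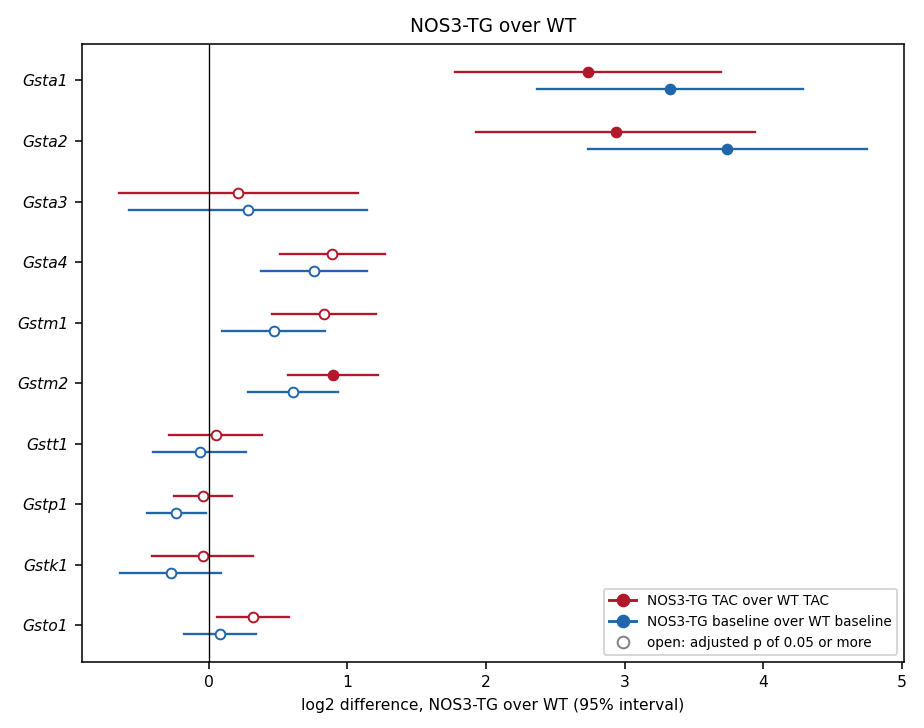
Log2 difference of NOS3-TG over WT for each glutathione transferase, after TAC in red and at baseline in blue, with 95% confidence intervals from limma; filled points have an adjusted p under 0.05. Gsta1 and Gsta2 lie near 3, Gsta4, Gstm1 and Gstm2 between 0.47 and 0.90, and the other members near 0.

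With TAC the called members were lower, and Gstt1, Gstk1 and Gsta3 were called in both genotypes. Gstt1, the theta class enzyme known for acting on small halogenated compounds, showed the largest fall of the family. It read 0.288 and 0.266 in males and 0.391 and 0.324 in females of NOS3-TG TAC, against 0.898 and 0.817 in males and 0.937 and 0.842 in females of NOS3-TG baseline. In wild-type mice it read 0.290 and 0.264 in males and 0.455 and 0.243 in females after TAC, against 0.817 and 0.788 in males and 1.1 and 0.981 in females at baseline. All 8 TAC arrays lay below all 8 baseline arrays. Gstt1 fell 2.78-fold in NOS3-TG (-1.47 ± 0.15, adjusted p = 0.00019 by limma) and 3.01-fold in WT (-1.59 ± 0.15, adjusted p = 7.84e-05 by limma). These calls held with any 1 array left out. The Gstt1 probe is placed on chromosome 10, between 75442599 and 75449763, in the files.

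Gstk1, the kappa class enzyme of mitochondria and peroxisomes, fell as well. It read 14.4 and 14.2 in males and 24.1 and 20.0 in females of NOS3-TG TAC, against 27.1 and 31.0 in males and 22.8 and 31.2 in females of NOS3-TG baseline. In wild-type mice it read 17.7 and 16.9 in males and 23.8 and 15.7 in females after TAC, against 32.9 and 32.7 in males and 30.8 and 38.7 in females at baseline. The groups were apart in WT, while in NOS3-TG one TAC female lay above one baseline female. The fall was 1.57-fold in NOS3-TG (-0.65 ± 0.17, adjusted p = 0.0266 by limma) and 1.84-fold in WT (-0.88 ± 0.17, adjusted p = 0.00265 by limma). In NOS3-TG the adjusted p was above 0.05, up to 0.0793 by limma, when NOS3-TG baseline replicate 1, 3 or 4 or NOS3-TG TAC replicate 1, 3 or 4 was left out, and 0.0892 without the 3 arrays of extreme background share.

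Gsta3 is the alpha class enzyme known in mouse liver for detoxifying the aflatoxin epoxide. It read 1.99 and 1.73 in males and 3.83 and 2.99 in females of NOS3-TG TAC, against 3.92 and 3.94 in males and 10.02 and 11.7 in females of NOS3-TG baseline. In wild-type mice it read 2.57 and 1.38 in males and 5.50 and 1.12 in females after TAC, against 2.98 and 3.14 in males and 8.85 and 9.94 in females at baseline. The baseline females stood apart from all other arrays, and 1 WT TAC female lay above the baseline males. Gsta3 fell 2.60-fold in NOS3-TG (-1.38 ± 0.40, adjusted p = 0.0409 by limma) and 2.48-fold in WT (-1.31 ± 0.40, adjusted p = 0.0269 by limma). Its dimmer probe gave -1.26 ± 0.39 in NOS3-TG (adjusted p = 0.057 by limma) and -1.20 ± 0.39 in WT (adjusted p = 0.0372 by limma).

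With 1 array left out, the Gsta3 call in WT was lost without WT baseline replicate 2 or 4 or WT TAC replicate 3, and the log2 difference moved between -1.60 and -0.77. In NOS3-TG it was kept in 5 of 16 such fits, with an adjusted p up to 0.107 by limma: those without WT baseline replicate 1 or 4 or WT TAC replicate 1, 2 or 4. Without the 3 arrays of extreme background share it was -1.22 in NOS3-TG (adjusted p = 0.256 by limma) and -1.31 in WT (adjusted p = 0.0542 by limma). Averaged over genotypes the Gsta3 call was kept with any 1 array left out, with an adjusted p of at most 0.00684 by limma.

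**Figure D3:**
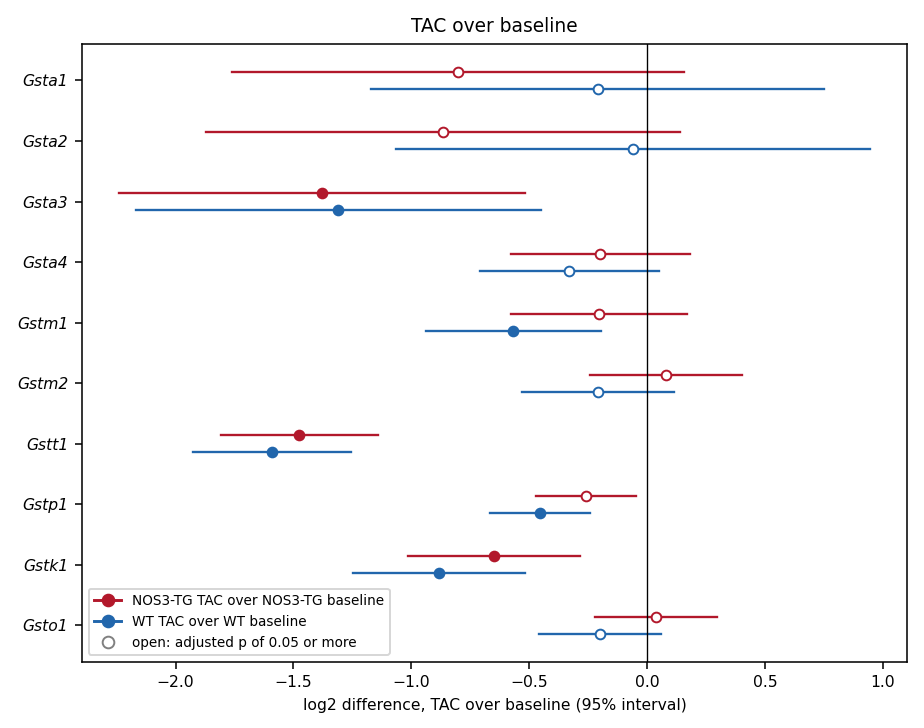
Log2 difference of TAC over baseline for each glutathione transferase, in NOS3-TG in red and in WT in blue, with 95% confidence intervals from limma; filled points have an adjusted p under 0.05. Gstt1 and Gsta3 lie farthest to the left in both genotypes, and no member was called higher.

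Gstp1, the pi class enzyme that also binds the stress kinase JNK, and Gstm1 fell by less, and were called in WT. Gstp1 read 95.4 to 122 in WT TAC, against 130.4 to 156 in WT baseline, with no overlap (-0.45 ± 0.10, adjusted p = 0.00501 by limma). In NOS3-TG it read 87.9 to 112 after TAC, against 107 to 131 at baseline, and the difference of -0.26 ± 0.10 did not pass (adjusted p = 0.104 by limma). Its dimmer probe did pass there, at -0.32 ± 0.10 (adjusted p = 0.0478 by limma). The annotation lists the transcript of Gstp2 too for the brighter Gstp1 probe. Gstm1 read 90.3 to 131 in WT TAC, against 141 to 173 in WT baseline (-0.57 ± 0.17, adjusted p = 0.0271 by limma), and the call was lost, with an adjusted p up to 0.095, without WT TAC replicate 3 or 4 or WT baseline replicate 1 or 3. In NOS3-TG the Gstm1 groups overlapped widely (-0.20 ± 0.17, adjusted p = 0.48 by limma).

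The other members did not pass with TAC. Their log2 differences in NOS3-TG were -0.80 ± 0.44 for Gsta1, -0.87 ± 0.47 for Gsta2, -0.20 ± 0.18 for Gsta4, 0.08 ± 0.15 for Gstm2 and 0.04 ± 0.12 for Gsto1. In WT they were -0.21, -0.06, -0.33, -0.21 and -0.20 for the same genes. The 95% interval of Gsta1 in NOS3-TG ran from -1.76 to 0.16.

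In all, 3 of 10 members fell and 0 rose in NOS3-TG, where 11.8% of all genes were called, and 5 fell and 0 rose in WT, where 28.4% were called. Averaged over genotypes 5 fell and 0 rose, against 37.2% of all genes called in either direction, and without the 3 arrays Gstm1 did not pass there (-0.38, adjusted p = 0.0811 by limma). The family's median log2 difference in that average was -0.42, and that of all genes -0.03. No member's response to TAC differed detectably between genotypes: 0 of 10 members and 0% of 15667 genes passed the interaction test by limma, with 0 members and 1166 genes at an unadjusted p under 0.05. The interaction estimates of Gsta1 and Gsta2 were -0.59 ± 0.63 and -0.81 ± 0.66. The comparisons share arrays with one another and are not independent of each other.

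Markers of other cells changed with TAC too. Of 5 measured adipocyte markers 2 fell in WT, Plin1 and Cidec, and 0 in NOS3-TG, and Lep was above background on 0 arrays. The list's summed level was 0.455 to 3.34 in NOS3-TG TAC against 0.202 to 4.66 in NOS3-TG baseline, and 0.373 to 1.03 in WT TAC against 0.498 to 6.93 in WT baseline. In WT, 4 of 8 fibroblast markers, 4 of 8 endothelial markers and 4 of 7 macrophage markers rose, while 1 of 8 cardiomyocyte markers fell. In NOS3-TG, 1 of 8 fibroblast markers, 1 of 8 endothelial markers and 1 of 7 macrophage markers rose, and 0 of 8 cardiomyocyte markers fell. The list for smooth muscle and pericytes, 7 genes, gave 1 higher and 1 lower call in each genotype. For the epicardial and mesothelial list, 4 genes tested, 1 call was higher in WT and 0 in NOS3-TG. The erythroid list, 3 genes tested, gave 0 calls in either genotype. For comparison, 11.8% of all genes were called with TAC in NOS3-TG and 28.4% in WT, in either direction. Of 4 atrial markers 1, Nppa, rose in each genotype, and 0 were called lower. The log2 differences of this list ran from -3.19 to 1.75 in NOS3-TG (median -2.57). In WT they ran from -1.34 to 2.06 (median -0.89). With Nppa included, the atrial list summed to 351 to 403 in NOS3-TG TAC, against 59.3 to 298 in NOS3-TG baseline. It summed to 220.3 to 461 in WT TAC, against 64.1 to 396 in WT baseline. Nos3 itself was lower in NOS3-TG TAC than in NOS3-TG baseline (-0.48 ± 0.12, adjusted p = 0.0207 by limma). The part of these in the falls of Gstt1, Gstk1 and Gsta3 was not tested, and fewer cells of a type cannot be told apart from less RNA per cell.

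No member was called between the sexes when averaged over the 4 groups, where 1.33% of all genes were. All 10 log2 differences of male over female were negative, from -1.09 ± 0.28 for Gsta3 (adjusted p = 0.0794 by limma) to -0.10 ± 0.08 for Gsto1, and 6 of 10 had an unadjusted p under 0.05, as did 2496 of 15667 genes. The sexes were then compared within conditions in a fit with a mean for each group and sex, chosen after the values had been seen. At baseline Gsta3 read 2.98 to 3.94 in the 4 males and 8.85 to 11.7 in the 4 females, without overlap, in mice of both genotypes. Its log2 difference of male over female there was -1.54 ± 0.40 (adjusted p = 0.201 by limma; 0.16% of genes called, 0 members). After TAC it was -0.63 ± 0.40 and males and females overlapped, and the change of the sex difference with TAC was 0.90 ± 0.57 (adjusted p = 0.57 by limma).

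For Gsta1, Gsta2, Gsta4, Gstm1 and Gstm2 both males read below both females in NOS3-TG TAC and in NOS3-TG baseline. With the brighter probe of Gstm1, this order was seen in neither WT group. The dimmer Gstm1 probe showed it in both WT groups as well. That probe read 6.44 and 7.31 in males and 7.66 and 8.57 in females of WT baseline. In WT TAC it read 4.60 and 4.36 in males and 5.43 and 4.82 in females. These 5 genes were singled out after their values were seen, and no sex difference within NOS3-TG passed. Gsta3 showed the order in both NOS3-TG groups and in WT baseline, and Gstt1 and Gstk1 showed it in NOS3-TG TAC. There all 10 members had a negative difference of male over female, from -2.49 for Gsta2 to -0.28 for Gstp1. The 75th percentile used as divisor was 1490.62 and 1333.35 in males and 1168.33 and 1127.46 in females of NOS3-TG TAC. In NOS3-TG baseline it was lower in males, and its part in the order was not tested. In NOS3-TG TAC the Gsta1 difference of male over female was -2.42 ± 0.37 (adjusted p = 0.0591 by limma), and the adjusted p of the 5 genes was up to 0.0927 (0.0447% of genes called). Over both conditions in NOS3-TG the difference of male over female was -1.54 ± 0.26 for Gsta1 and -1.59 ± 0.27 for Gsta2 (adjusted p = 0.0802 each by limma; 0.121% of genes called, 0 members). In WT it was -0.08 ± 0.26 and -0.03 ± 0.27. The test of whether the sex difference depended on genotype gave no call among all genes (0%), with an adjusted p of 0.999 by limma and an unadjusted p between 0.000979 for Gsta4 and 0.0113 for Gstm1, where 520 of 15666 genes were under 0.05.

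Averaged over genotypes after TAC, Gsta1 and Gsta2 were lower in males and passed narrowly (-1.38 ± 0.26, adjusted p = 0.0459, and -1.42 ± 0.27, adjusted p = 0.0452 by limma), where 1.07% of genes were called. Of 20 alternatives the Gsta1 call was lost in 19 and that of Gsta2 in 17, with an adjusted p of up to 0.127 and 0.125 by limma. Nos3 itself read 123 and 154 in males and 219 and 187 in females of NOS3-TG TAC, a log2 difference of -0.55 (adjusted p = 0.177 by limma). Cell markers differed by sex too, though none was called averaged over groups. The median log2 difference of male over female was 3.00 for the atrial and 0.84 for the erythroid list. Medians of the other lists ran from -0.24 (epicardial and mesothelial) to 0.50 (adipocyte). The part of Nos3 or of these markers in the sex differences of the members was not tested. With 2 males and 2 females per group, these values describe few animals.

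Of 11 tested among 16 other glutathione transferase genes, 1 was higher and 0 lower in NOS3-TG TAC than in WT TAC, and 0 passed at baseline. Of all genes 0.281% were called after TAC and 0.415% at baseline. The gene called after TAC was Gstm3, of the mu class. It read 76.0 and 82.8 in males and 169 and 140.1 in females of NOS3-TG TAC, against 48.0 and 50.9 in males and 68.3 and 50.1 in females of WT TAC, without overlap (1.04 ± 0.17, adjusted p = 0.0229 by limma). With TAC, 2 of the 11 fell in NOS3-TG, Gstt2 by 0.88 and Gstm7 by 0.74 on the log2 scale, and 7 fell in WT, led by Gstm7 (-1.14 ± 0.12) and Gstt2 (-1.02 ± 0.11). Their median log2 difference was -0.21 in NOS3-TG and -0.38 in WT, against medians of all genes of 0.00 and -0.06. With TAC 11.8% of all genes were called in NOS3-TG and 28.4% in WT, in either direction. Averaged over genotypes 2 rose and 8 fell, where 37.2% of all genes were called. Hpgds, the sigma class prostaglandin D synthase, rose by 0.84 ± 0.28. Its signal was low, with a mean log2 relative signal of -4.00 after TAC and -4.84 at baseline.

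The enzymes that make glutathione moved with the transgene in part. Of 10 tested genes of synthesis and precursor supply, 1 rose in NOS3-TG baseline over WT baseline: Gclm, the modifier subunit of glutamate-cysteine ligase, the enzyme that limits the rate of glutathione synthesis. Gclm read 0.290 and 0.336 in males and 0.521 and 0.404 in females of NOS3-TG baseline, against 0.151 and 0.154 in males and 0.236 and 0.216 in females of WT baseline, without overlap (1.03 ± 0.16, adjusted p = 0.0134 by limma). In NOS3-TG TAC over WT TAC 0 of the 10 genes were called, and their log2 differences were at most 0.44. The Gclm groups overlapped there, with a NOS3-TG male at 0.248 and a WT male at 0.274. Averaged over conditions Gclm was higher by 0.74 ± 0.11 and Gclc, the catalytic subunit, by 0.38 ± 0.08 (adjusted p = 0.0309 by limma). With TAC the same list gave 1 fall in NOS3-TG, Oplah (-0.81 ± 0.18), the 5-oxoprolinase that returns glutamate. In WT it gave 1 rise, of the neutral amino acid transporter Slc1a4 (0.99 ± 0.22), and 2 falls, of Cth (-1.08 ± 0.27), which makes cysteine, and Oplah (-0.70 ± 0.18). Of all genes 11.8% were called with TAC in NOS3-TG and 28.4% in WT. For genotype 0.415% were called at baseline and 2.07% averaged over conditions.

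No gene of the peroxidase, reductase and glutaredoxin list (11 tested) or of the conjugate export and breakdown list (13 tested) was called in the genotype comparisons. Averaged over conditions, 1 gene each of the following lists was higher in NOS3-TG. These were Alox5ap of the membrane-bound proteins (0.40 ± 0.09), Pgd of NADPH supply (0.31 ± 0.07) and Esd of aldehyde and methylglyoxal clearance (0.46 ± 0.08). In that average 2.07% of all genes were called. With TAC in WT, Gpx3 (0.94 ± 0.27) and Gpx1 (0.46 ± 0.14), which reduce peroxides, rose, and Glrx (-0.71 ± 0.13) and Glrx5 fell. The exporter Abcc3 rose by 0.79 ± 0.15, and Dpep1, Chac2 and Ggt5, which cleave glutathione or its conjugates, fell by 0.61, 0.53 and 0.48. In NOS3-TG Gpx8 rose (0.39 ± 0.10) and Ggt5 fell (-0.60 ± 0.16). These TAC calls stand beside 28.4% of all genes called in WT and 11.8% in NOS3-TG, in either direction.

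Of 10 genes of NADPH supply, 1 rose and 1 fell with TAC in NOS3-TG, and 2 rose and 3 fell in WT, and Idh1 fell in both (-0.52 ± 0.13 in NOS3-TG and -0.72 ± 0.13 in WT). Of 14 tested genes of aldehyde and methylglyoxal clearance, 4 fell in NOS3-TG, led by the alcohol dehydrogenase Adh1 (-1.42 ± 0.40) and Aldh2 (-0.57 ± 0.13), which oxidises aldehydes in mitochondria. In WT 3 fell, Aldh9a1 (-0.70 ± 0.13), Akr1b3 (-0.41 ± 0.11) and Glo1 (-0.28 ± 0.09). The counts in this paragraph stand beside 11.8% of all genes called in NOS3-TG and 28.4% in WT, in either direction. Of 6 membrane-bound proteins 1 fell in each genotype, Ltc4s (-0.58 ± 0.18) in NOS3-TG and Mgst2 (-0.89 ± 0.25) in WT. The Mgst2 signal was low, with a mean log2 relative signal of -4.40 in WT TAC and -3.50 in WT baseline. A gene called with TAC in 1 genotype only is not shown to respond differently in the other, since the interaction test called no gene.

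**Figure D4:**
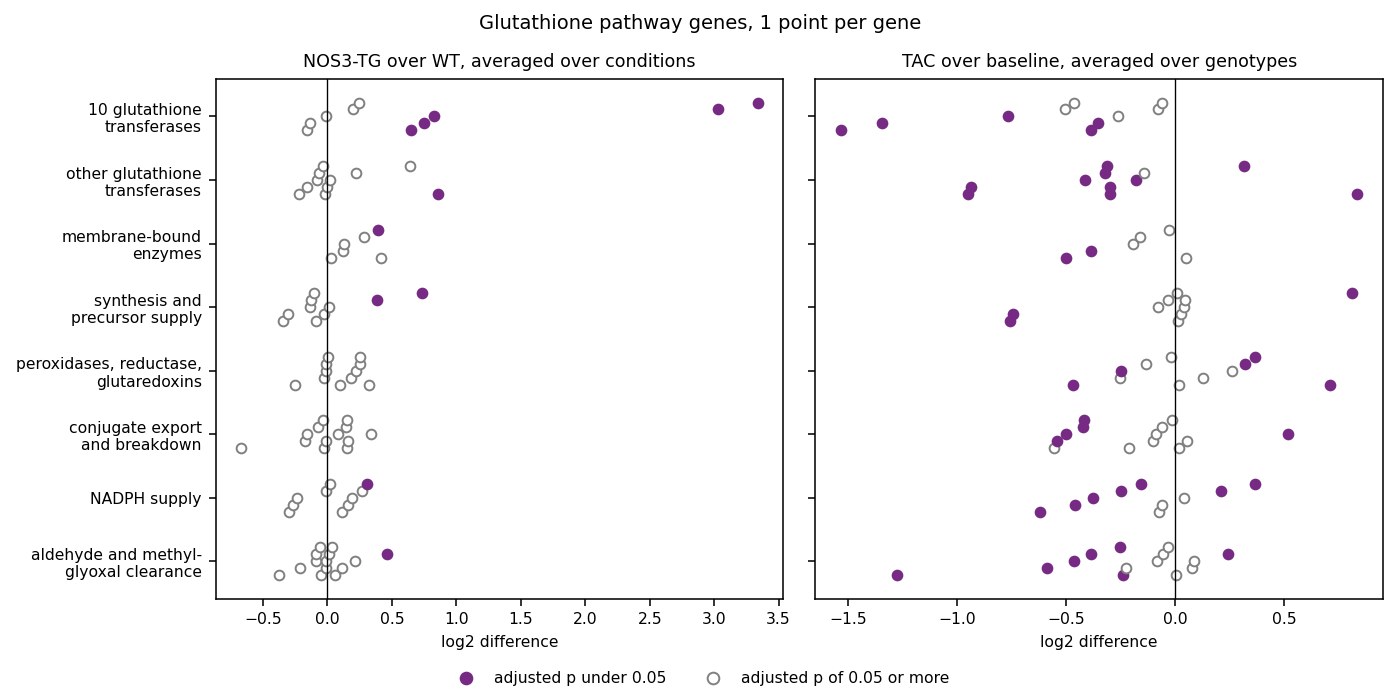
Log2 differences of the 10 glutathione transferases and of 7 lists of related genes, 1 point per gene, for NOS3-TG over WT on the left and TAC over baseline on the right, each averaged over the other factor; filled points have an adjusted p under 0.05 by limma. On the left the members reach 3.34 and the other lists at most 0.85; on the right falls of the members reach -1.53.

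Gstt1 had the largest called TAC difference of the family, and the genes whose signal followed it most closely over the 16 arrays were Rmc1, 4930577N17Rik and Polg2, with Pearson r of 0.966 each. The arrays share the split between TAC and baseline, whose part in this likeness was not tested. Polg2, the accessory subunit of the mitochondrial DNA polymerase, fell by 0.39 in NOS3-TG TAC and by 0.59 in WT TAC on the log2 scale.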

How the data were processed

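Per the file headers, the deposited spot intensity values are processed signals of Agilent Feature Extraction (version 9.5.1.1 in the submitters' processing notes), background-subtracted and multiplicatively detrended. A log2 table deposited by the authors, with a normalization not stated in these sources, served as an alternative. Control and outlier spots were left out, replicate spots averaged, and the log2 signal was set relative to each array's 75th percentile. Probes well above background on at least 4 of 16 arrays were kept, and the brightest probe stood for a gene. Limma 3.58.1 in R 4.3.3 fitted 4 group means and sex. Tests are two-sided, with Benjamini-Hochberg adjustment over 15667 genes, or 23066 probes for single probes. The fit was tested on simulated data. Groups came from the labels, which call the animals biological repeats. Sequences came from RefSeq (GRCm38.p6) and were aligned with Biopython 1.88. Plots used matplotlib 3.10.9 under Python 3.11.15.

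The members and lists were chosen with earlier results of these data known. Named genes are all members, up to 4 called genes per list and comparison by size, and the 3 genes most like the member with the largest called TAC change; some smaller list changes are left out for length. Alternatives are given in the closing section. The number of arrays limits the precision. Probe sequences and proteins were not used here.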

Additional observations from a re-analysis of the deposited data

Results flagged for a closer look

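The highest and lowest array of each group of 4 was compared with the others for all 10 glutathione transferases. In 0 of 40 groups did an array stand apart by Dixon's test at its 95% critical value, where chance gives about 1 in 20.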

How the results depend on the processing

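Alternatives were quantile normalization, normexp background correction, the authors' table, other filters and probe choices, array weights, a variance trend, leaving out the sex term, fitting only the groups compared, blocks for slide or scan day, the 3 arrays of extreme background share left out, and each array left out. The dimmer probe and the fit by group and sex were added after seeing the data. Called members in WT TAC over WT baseline were 3 without a filter, without a sex term or with scan day, and 3 to 5 with 1 array left out (main 5). In NOS3-TG TAC over NOS3-TG baseline they were 1 without a filter, with scan day or without the 3 arrays, and 1 to 4 with 1 array left out (main 3). In NOS3-TG baseline over WT baseline array weights gave 4 (main 2). In NOS3-TG TAC over WT TAC (main 3), 5 were called with quantile normalization, array weights, a variance trend or a filter on all arrays, 0 without a filter, without a sex term, with the compared groups alone or without the 3 arrays, and 0 to 4 with 1 array left out. Averaged over conditions, genotype calls were 4 without the 3 arrays, where Gstm1 was lost, 6 with quantile normalization and 5 otherwise (main 5). Averaged over genotypes, TAC calls were 4 to 8 with 1 array left out (main 5). Between the sexes 1 member was called with a filter on all arrays, array weights, slide or scan day, and 0 to 2 with 1 array left out (main 0). The cause of these shifts was not tested.

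Values that changed sign were all uncalled. Under normexp these were, for NOS3-TG TAC over WT TAC, Gstt1 (-0.11), Gstp1 (0.041) and Gstk1 (0.036), and the interaction of Gstt1 (-0.029). Without the 3 arrays they were Gstk1 for NOS3-TG TAC over WT TAC (0.029), the interaction of Gsta3 (0.092) and Gstt1 averaged over conditions (0.045). Under quantile normalization the averaged TAC difference of Gsto1 was 0.0085. With 1 array left out, ranges were -0.43 to 0.030 (Gsta1) and -0.27 to 0.18 (Gsta2) for TAC in WT, and -0.069 to 0.19 (Gstm2) and -0.046 to 0.15 (Gsto1) for TAC in NOS3-TG. For genotype after TAC they were -0.33 to 0.51 (Gsta3), -0.11 to 0.21 (Gstt1), -0.088 to 0.018 (Gstp1) and -0.17 to 0.062 (Gstk1). At baseline they were -0.13 to 0.00016 (Gstt1) and -0.011 to 0.15 (Gsto1), and averaged -0.023 to 0.39 (Gsta3) and -0.091 to 0.074 (Gstt1). For the interaction they were -0.61 to 0.22 (Gsta3), -0.0031 to 0.25 (Gsta4) and -0.049 to 0.28 (Gstt1).

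The averaged genotype differences of Gsta1, Gsta2, Gsta4 and Gstm2 and the TAC differences of Gstt1 in both genotypes were called under every alternative that was run. Depth is not the limit for the members, all of which were well above background. The labels give no replicate numbers that pair animals across groups, and genotypes were compared within slides through the slide block, under which the number of called members was 2 at baseline, 3 after TAC and 5 averaged over conditions, as without it.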
